A study of Mus musculus with 6 samples.

Results

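Among the 1954255 tiles of 1 kb measured in mouse lung endothelial cells, 1247 (0.0638%) were methylated in wild-type cells and unmethylated in cells lacking Dnmt3a. They were chosen by a mean methylation level of 50% or more over the wild-type samples and under 10% over the knockout samples, so the levels of both groups made the choice and are described here without a test. The tiles that could have met the rule, those at 50% or more in wild type, numbered 1787286, and 0.0698% of them met it. No tile had the reverse pattern (0 tiles at 50% or more in knockout and under 10% in wild type). The tiles that could have shown it, those under 10% in wild type, were far fewer, at 26874. The study measured DNA methylation by tagmentation-based whole-genome bisulfite sequencing in endothelial cells sorted by flow cytometry from the lungs of Dnmt3a knockout mice (KO, 3 samples) and wild-type mice (WT, 3 samples). All 6 samples come from lung and carry the label endothelial cell. The age of the mice, the deleted part of Dnmt3a, the cells in which it was deleted and whether each sample is a separate animal are not stated in the labels, so the spread between samples may be technical. A level is the share of methylated cytosines of a tile averaged over all cells of a sample, so a change in every cell and a change in the make-up of the sorted cells cannot be told apart.

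Dnmt3a is an enzyme that places methyl groups on unmethylated CpG dinucleotides, while Dnmt1 copies existing methylation after replication. Most CpGs of a mammalian genome are methylated, and the exceptions are short CpG islands at gene starts and broad unmethylated stretches, called valleys or canyons, which often hold genes of developmental transcription factors. Enzymes of the Tet family oxidise methylated cytosine, and the boundary of a valley is known to depend on the balance between such loss and renewed methylation.

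RefSeq's table of protein-coding gene starts on GRCm38.p6, which is the mm10 build, placed 27 starts in 26 of the member tiles. The windows from 250 bases before to 50 after the start are shown for 6 of them, because these are the places where the change met a gene start: the 5 genes that belong to one of the gene lists used below, and Nfix, with the largest difference among the rest. Each is written 5′ to 3′ on the strand of its gene, with CpG dinucleotides in capitals. The level belongs to the whole 1 kb tile and not to the window alone, and the window of Cldn4 runs past the end of its tile.
Pax8 (chr2:24475550-24475849, minus strand): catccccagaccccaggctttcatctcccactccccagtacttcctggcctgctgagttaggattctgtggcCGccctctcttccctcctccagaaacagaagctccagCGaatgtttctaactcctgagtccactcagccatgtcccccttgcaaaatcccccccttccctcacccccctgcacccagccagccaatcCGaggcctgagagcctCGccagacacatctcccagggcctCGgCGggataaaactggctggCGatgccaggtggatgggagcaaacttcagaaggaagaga
Cldn4 (chr5:134946885-134947184, minus strand): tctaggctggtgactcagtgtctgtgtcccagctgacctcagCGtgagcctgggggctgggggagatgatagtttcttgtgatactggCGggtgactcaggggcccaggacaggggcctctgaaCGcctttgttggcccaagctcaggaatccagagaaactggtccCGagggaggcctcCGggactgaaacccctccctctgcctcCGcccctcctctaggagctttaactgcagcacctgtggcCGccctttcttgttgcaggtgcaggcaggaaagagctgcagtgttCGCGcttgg
Tcf21 (chr10:22820094-22820393, minus strand): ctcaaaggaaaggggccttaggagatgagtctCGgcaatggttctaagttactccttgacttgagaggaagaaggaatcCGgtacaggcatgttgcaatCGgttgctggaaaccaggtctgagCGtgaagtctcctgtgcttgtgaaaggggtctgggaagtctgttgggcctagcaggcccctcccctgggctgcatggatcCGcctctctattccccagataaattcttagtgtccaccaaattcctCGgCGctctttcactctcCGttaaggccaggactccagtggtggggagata
Lef1 (chr3:131156044-131156343, plus strand): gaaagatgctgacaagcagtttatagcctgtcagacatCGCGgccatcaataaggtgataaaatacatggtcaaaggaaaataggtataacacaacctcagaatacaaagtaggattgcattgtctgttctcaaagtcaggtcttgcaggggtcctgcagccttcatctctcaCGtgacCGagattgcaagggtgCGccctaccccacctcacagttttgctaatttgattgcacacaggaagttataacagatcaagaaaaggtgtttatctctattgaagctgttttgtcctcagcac
Nr6a1 (chr2:38784466-38784765, minus strand): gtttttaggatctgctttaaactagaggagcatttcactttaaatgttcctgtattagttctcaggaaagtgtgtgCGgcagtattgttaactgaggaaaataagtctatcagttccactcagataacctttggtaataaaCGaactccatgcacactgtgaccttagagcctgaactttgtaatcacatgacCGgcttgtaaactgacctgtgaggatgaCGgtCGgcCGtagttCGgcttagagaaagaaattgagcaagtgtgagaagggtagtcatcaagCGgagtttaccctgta
Nfix (chr8:84780033-84780332, minus strand): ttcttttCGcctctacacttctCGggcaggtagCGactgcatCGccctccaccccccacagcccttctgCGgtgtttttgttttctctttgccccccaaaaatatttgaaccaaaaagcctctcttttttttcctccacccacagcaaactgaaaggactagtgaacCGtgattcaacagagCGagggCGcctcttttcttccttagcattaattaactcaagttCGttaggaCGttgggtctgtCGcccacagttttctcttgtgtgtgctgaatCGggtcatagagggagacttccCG

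The start tile of Pax8, a paired-box transcription factor of thyroid and kidney, was at 5.04, 2.70 and 4.80% in the KO samples and at 83.9, 73.6 and 70.2% in the WT samples (here and below in the order of replicates 1, 2 and 3). That of Cldn4, a tight junction protein of epithelia, was at 11.1, 8.85 and 9.36% in KO and at 75.2, 71.6 and 73.8% in WT. That of Tcf21, a basic helix-loop-helix factor of lung mesenchyme, was at 2.79, 0.315 and 0.265% in KO and at 56.9, 51.7 and 64.8% in WT. These 3 starts lie at the edge of their genes. The starts of the other 3 are internal: that of Lef1, a transcription factor of the Wnt pathway, lies 46.0 kb inside the gene, that of the orphan nuclear receptor Nr6a1 141.9 kb and that of Nfix, a nuclear factor I protein, 21.2 kb. Their tiles were at 9.44% ± 4.40, 8.59% ± 1.57 and 0.971% ± 0.666 in KO and at 59.5% ± 12.5, 50.4% ± 3.88 and 75.4% ± 2.38 in WT (SD, n = 3). The 6 windows held 5 to 13 CpGs. Over the 27 starts in member tiles the median was 8 CpGs in 300 bases, against 3 at the 5261 other starts whose tile was at 50% or more in WT, 10 at starts at 10 to 50% and 23 at starts under 10%. The dinucleotide CG, which reads the same on both strands, occurred in every one of the 27 windows and in 97.3% of all 18979 windows with a measured tile. The ratio of observed to expected CpGs had medians of 0.378, 0.188, 0.454 and 0.805 in the same order. In its median CpG content the group of member starts thus stood between other methylated starts and unmethylated starts, and 1 member start, 4933428G20Rik (chosen after its values were seen), held 42 CpGs.

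The members also covered 4 microRNA hairpins in 3 tiles. Mature sequences are shown for 3 of these hairpins because they are short regulatory products whose genes were inside the changed tiles; capitals mark the seed, bases 2 to 8, the part that pairs with targets. None of the seeds is shared between them.
mmu-miR-219a-5p: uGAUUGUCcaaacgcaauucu
mmu-miR-219b-5p: aGAUGUCCagccacaauucucg
mmu-miR-219b-3p: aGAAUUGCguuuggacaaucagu
mmu-miR-193b-5p: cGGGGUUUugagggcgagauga
mmu-miR-193b-3p: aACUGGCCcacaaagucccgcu

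Mir219a-2 and Mir219b lie on opposite strands in 1 tile (chromosome 2, 29845001 to 29846000), which was at 5.15, 6.37 and 6.88% in KO and at 69.2, 62.5 and 66.7% in WT. The tile of Mir193b (chromosome 16, 13449001 to 13450000) was at 6.56, 6.07 and 10.8% in KO and at 71.4, 61.4 and 55.8% in WT, and it touched a tile under 10% in WT. The fourth hairpin, Gm38671, overlapped a tile at 5.26% ± 2.87 in KO and 51.5% ± 6.83 in WT (SD, n = 3).

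Within the members, most KO levels lay between 2 and 10%, and the WT medians lay below those of methylated tiles as a whole. Over the 1247 tiles the KO samples had medians of 5.97, 5.35 and 5.82%, and the WT samples had medians of 63.2, 60.4 and 60.4%. Over all tiles at 50% or more in WT, the medians of the same samples were 67.7, 68.02 and 67.99% and 73.4, 72.6 and 72.5%. Of the members, 156 had a KO mean under 2%, 327 from 2 to 5% and 764 from 5 to 10%. The WT mean was 50 to 60% in 588, 60 to 70% in 368, 70 to 80% in 226 and 80% or more in 65. The median difference was -54.98 points and the range ran from -40.3 to -88.995 points, beside a median of -4.05 points over all tiles. The standard deviation between replicates had a median of 1.91 points in KO and 4.41 in WT.

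**Figure D1:**
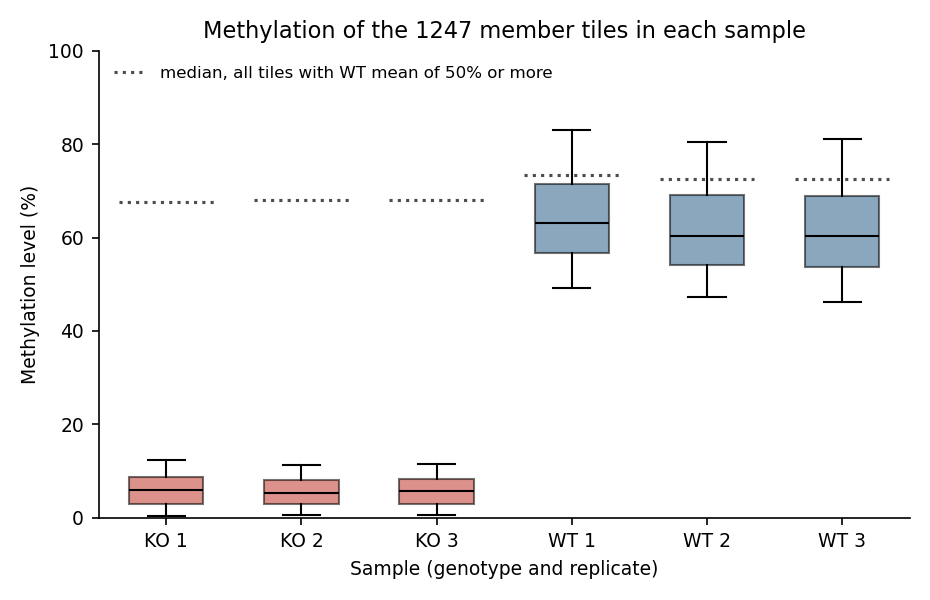
Methylation level in percent of the 1247 member tiles in each of the 6 samples. Boxes span the quartiles with the median as a line, whiskers reach the 5th and 95th percentiles, and dotted lines give the sample's median over all tiles with a WT mean of 50% or more. The KO medians lie at 5.35 to 5.97% and the WT medians at 60.4 to 63.2%, below the dotted lines of the same samples.

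All 1247 members were called lower in KO by limma, with an adjusted p below 0.05 and 10 points or more between the group means, as were 16.2% of all tiles. The highest KO sample was below the lowest WT sample in each of the members and in 31.6% of all tiles. Since the rule used this contrast, nothing is read from either count. In 817 members every KO sample was under 10%, in 930 every WT sample was at 50% or more, and in 610 both held. The limits cut through a continuum: 203 members had a KO mean of 9 to 10%, and 180 tiles just outside, with 10 to 11%, had a median WT level of 60.5%. Likewise 65 members were at 50 to 51% in WT, and 65 tiles with a KO mean under 10% were at 49 to 50%.

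Replicates that took no part in the choice also had low medians in KO and high medians in WT, though many single tiles missed a limit. When tiles were chosen on replicates 1 and 2 of each group, 1342 met the rule, and their medians in replicate 3 were 6.14% in KO and 58.96% in WT. Chosen without replicate 1, 1237 tiles had medians of 6.56 and 63.3% there, and chosen without replicate 2, 1238 tiles had medians of 5.71 and 59.9%. Over all tiles the held-out medians were 66.3 to 66.6% in KO and 70.97 to 71.9% in WT. The left-out KO sample was under 10% and the left-out WT sample at 50% or more in 66.5, 67.5 and 62.8% of the tiles for replicates 1, 2 and 3. The order of the 2 held-out samples was reversed in 2, 1 and 0 tiles, and the highest held-out KO level was 82.3, 72.2 and 33.2%. The lowest held-out WT level was 29.2, 4.15 and 28.4%. With 1 held-out sample a group there is no test.

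For the whole series, limma called 316257 tiles lower and 1555 (0.0796%) higher, so 99.5% of calls were losses. With each sample scaled to one mean level the split was 128517 lower to 30656 higher (80.7% losses), and centred on the sample median it was 129769 to 18197 (87.7%). The mean level over all tiles was 63.5 to 63.8% in KO samples and 68.7 to 69.5% in WT samples. Read depth is unknown, because the values come without counts. Low methylation is common at gene starts: of 18979 measured starts of coding genes, 10436 were under 10% in WT. With the lowest start tile taken for each gene, 5 of 6 pan-endothelial markers with a measured start were under 10% in WT (median 1.72%). Beside that share, this count does not check the label endothelial cell. These marker sets, of 10 pan-endothelial, 8 leukocyte, 8 epithelial and 7 mesenchymal genes, are shorter than the lists of the same names used further down. The lowest start tile was at 50% or more for 5 of 6 leukocyte markers (median 62.7%, 1 under 10%), 3 of 5 epithelial markers (58.2%, 0 under 10%) and 2 of 5 mesenchymal markers (45.3%, 2 under 10%). In KO the 4 medians were 1.10, 49.6, 16.5 and 1.12% in the same order. What a different share of other cells in the sorted samples contributes to the members was not tested. The span of Dnmt3a and 1 kb on either side held 1 member among 115 measured tiles (51.5% ± 9.47 in WT, 6.62% ± 1.69 in KO), which does not check the genotype.

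Most members stood alone. Merging touching tiles gave 1006 clusters, of which 830 were single tiles, 137 held 2 tiles and 39 held 3 or more. Single tiles made up 66.6% of the members, and the 39 longest clusters held 143 tiles. Longer clusters were lower in KO and higher in WT than single tiles: the median was 6.996% in KO and 58.9% in WT for single tiles, 5.19 and 63.3% for tiles in pairs, and 3.20 and 66.97% for tiles in clusters of 3 or more. The rule used these same levels and every tile of a cluster has to meet it, so nothing is read from this trend. The tile beside a cluster was most often partly methylated in WT (10 to 50%, 34.3% of borders) or methylated in WT with a KO level of 30% or more (28.5%). In 25.4% of borders the next tile was at 50% or more in WT and at 10 to 30% in KO, in 9.99% it was under 10% in WT, and in 1.74% it was not in the table. The median gap to the nearest other cluster was 106.5 kb, and a minority of clusters had a close neighbour, 207 (20.6%) within 5 kb and 271 (26.9%) within 10 kb. Joined over gaps of up to 10 kb they formed 844 loci, and 22 loci with at least 5 members held 174 members (13.95%).

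The 20 clusters with the most member tiles were 3 to 8 kb long. The 8 kb cluster inside Hoxb3, a homeobox factor of positional identity (chromosome 11, 96325001 to 96333000), was at 0.852, 3.04 and 1.32% in KO and at 67.6, 68.3 and 65.5% in WT. A 7 kb cluster inside Ahdc1, an AT-hook DNA-binding protein (chromosome 4, 133040001 to 133047000), was at 2.86, 3.10 and 3.42% in KO and at 63.6, 62.6 and 62.4% in WT. In both clusters the samples of a group lay within a few points of each other, and the gap between the groups follows from the rule. Also inside Hoxb3 were clusters of 6 kb (3.80% ± 1.09 in KO, 75.8% ± 0.333 in WT) and 4 kb (1.67% ± 0.254 and 71.7% ± 1.14), and a 3 kb cluster across Hoxb5 and Hoxb3 was at 4.22% ± 3.34 and 78.6% ± 1.73 (SD, n = 3).

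Of the 3 clusters of 5 kb, the one in Meis1, a homeobox partner of Hox proteins (chromosome 11, 19008001 to 19013000), was at 5.51, 1.90 and 4.67% in KO and at 69.9, 68.3 and 76.03% in WT. The one in the non-coding gene Tbx3os1, 2.53 kb from the T-box gene Tbx3 (chromosome 5, 119663001 to 119668000), was at 1.08, 0.816 and 2.56% in KO and at 63.6, 71.2 and 70.6% in WT. The one in Jak3, a kinase of cytokine receptors (chromosome 8, 71684001 to 71689000), was at 6.205, 4.11 and 4.39% in KO and at 66.3, 65.3 and 60.7% in WT. In each of these 3 clusters the WT samples spread more widely than the KO samples.

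Clusters of 4 kb lay inside Prdm8, a PR domain protein (3.71% ± 1.14 in KO, 73.7% ± 0.240 in WT), Nfix (3.91% ± 0.9997 and 73.3% ± 0.641), Tcf7l2, a transcription factor of the Wnt pathway (5.95% ± 0.263 and 72.5% ± 2.79), and Zmynd8, a chromatin reader (4.35% ± 1.501 and 66.6% ± 2.56). Others of this length lay outside coding genes, 2.09 kb from Skida1 (2.71% ± 0.458 and 73.3% ± 4.46) and 0.143 kb from the homeobox gene Hlx (1.52% ± 0.242 and 65.99% ± 2.37). All errors are SDs over 3 samples. The 3 kb clusters among the 20 included those of Hic1, a zinc finger repressor (1.56% ± 0.303 and 66.7% ± 0.611), and Plekhh3 (2.77% ± 0.655 and 70.5% ± 3.89). One lay 1.24 kb from Mecom, a zinc finger transcription factor (4.61% ± 0.726 and 71.3% ± 1.11). KO means of all 20 clusters were between 1.49 and 5.95%.

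**Figure D2:**
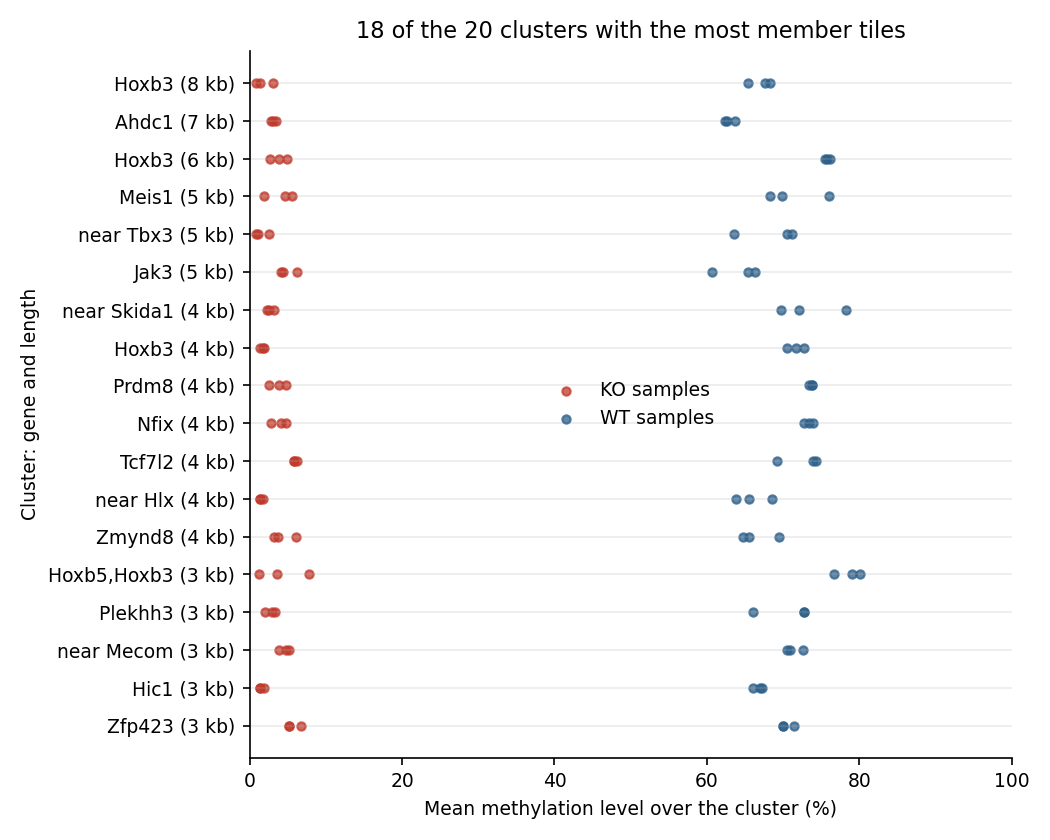
Mean methylation level in percent (horizontal axis) of 18 of the 20 clusters with the most member tiles, with 1 point for each of the 3 KO and 3 WT samples and the gene and cluster length on the vertical axis. KO points lie under 8% and WT points above 60% in every cluster shown.

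The HoxB genes, which set positional identity along the body axis, held the densest group of members. In KO a single stretch of 96 touching tiles (chromosome 11, 96259001 to 96355000), from beyond Hoxb9 to Hoxb2, was under 10%. In WT the same stretch was broken up: 35 of its tiles were under 10%, in 10 separate runs, 31 were at 10 to 50% and 30 were members. Its mean was 2.78, 1.93 and 2.02% in KO and 32.9, 33.0 and 31.7% in WT. The span of Hoxb3 with 1 kb on either side held 25 members among 43 measured tiles, at 2.55% ± 0.187 in KO and 73.1% ± 0.806 in WT. A window chosen with these values known ran between the tiles under 10% in WT at Hoxb4 and those at Hoxb2. All of its 32 tiles were under 10% in KO and 23 of them were members. That 0 of them were under 10% in WT follows from where the window was cut. Other members of the group were near Hoxb5 and Hoxb6, at Hoxb7, and around Hoxb1 beyond the stretch, where 3 member tiles were at 2.76% ± 1.43 in KO and 62.3% ± 9.05 in WT.

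**Figure D3:**
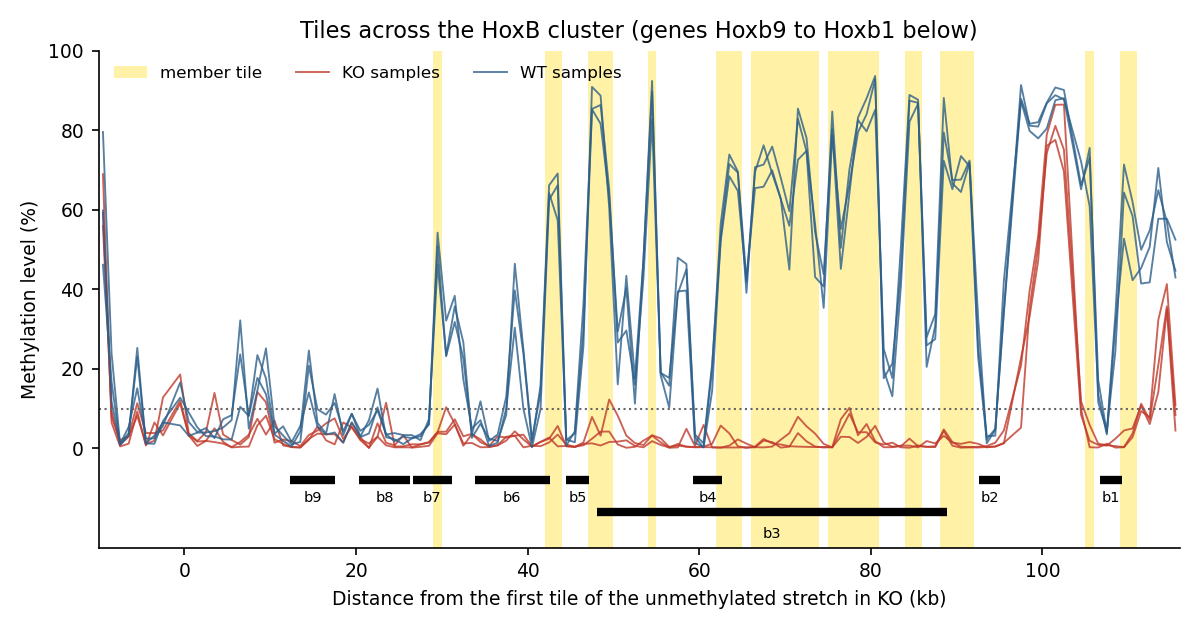
Methylation level in percent of each 1 kb tile across the HoxB genes, with 1 line per sample and the horizontal axis in kb from the first tile of the stretch under 10% in KO; yellow bands are member tiles, black bars are gene spans and the dotted line is 10%. WT lines are high in the member tiles, as the rule requires. These make up 23 of the 32 tiles that separate the tiles under 10% in WT at Hoxb4 from those at Hoxb2. KO lines start at 56.0 to 69.0% in the first tile shown, stay low across the stretch and rise again in a methylated block between Hoxb2 and Hoxb1.

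In the HoxA genes the runs under 10% in KO were shorter and held fewer members than in HoxB. One run of 25 tiles under 10% in KO from Hoxa3 to Hoxa6 held 8 tiles under 10% in WT, in 4 runs, and 4 members, at 1.48% ± 0.180 in KO and 26.4% ± 2.85 in WT (SD, n = 3). Of the 39 Hox genes, 12 had a member within 1 kb, 7 of HoxB and 5 of HoxA.

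Around Nr2f2, which encodes the venous identity factor COUP-TFII, 16 members in 9 clusters lay within 41 kb (chromosome 7, 70328001 to 70369000). The 39 measured tiles of this locus were at 2.51, 2.23 and 2.14% in KO and at 44.5, 43.3 and 44.1% in WT, and 36 of them were under 10% in KO against 6 in WT. The 5 members at the gene itself were at 0.374, 0.519 and 0.459% in KO (the lowest mean among the list genes named here) and at 59.6, 66.2 and 58.2% in WT. In Nfix 9 members lay within 12 kb with 0 tiles under 10% in WT; these 12 tiles were at 2.71% ± 0.139 in KO and 60.4% ± 1.28 in WT. Lhx6, a LIM homeobox gene, had 9 members within 13 kb at a locus level of 9.07% ± 1.01 in KO and 65.9% ± 3.51 in WT, also with 0 tiles under 10% in WT. Zfhx3, a large zinc finger homeobox gene, had 8 members in 6 clusters over 31 kb, at a locus level of 13.5% ± 0.456 and 54.3% ± 0.865. Each locus runs from its first to its last member, so its count of tiles under 10% in WT depends on where it ends. Measured between tile starts, the members at Lhx6 and those at Nr2f2 itself came within 2 kb of such a tile. Those in the whole span of Nfix came within 7 kb.

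Members lay closer to WT valleys, tiles with a WT mean under 10%, than methylated tiles as a whole. Valley tiles made up 1.38% of the table. Measured between tile starts, so that touching tiles are 1 kb apart, the median distance was 7 kb for members (quartiles 2 and 29 kb, largest 461 kb) and 78 kb for all tiles at 50% or more in WT (quartiles 25 and 241 kb). Tiles touching a valley were 16.04% of members (95% exact binomial interval 14.04 to 18.2%, which covers counting of tiles only) and 0.757% of methylated tiles. Tiles within 5 kb were 46.6 and 6.09%. Per 100 methylated tiles there were 1.48 members at 1 kb, 0.704 at 2 kb, 0.292 from 3 to 5 kb and 0.147 from 6 to 10 kb. Farther out the number was 0.0789 between 11 and 20 kb and 0.00850 beyond 100 kb. Loss in general was also greater near valleys. Over all methylated tiles the median difference was -12.7 points at 1 kb, where 53.6% were called lower by limma. Beyond 100 kb it was -2.66 points, with 7.50% called lower. Greater loss near valleys was thus not particular to the members. These shares are descriptions, and neighbouring tiles share noise.

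A large minority of members was far from any valley, though a smaller share than of methylated tiles. More than 10 kb from a valley lay 512 of them (41.1%), against 88.0% of methylated tiles. More than 50 kb away lay 188 (15.1%), which is 0.0175 per 100 methylated tiles at that distance. Within the range that the rule leaves, the median was 5.96% in KO and 58.6% in WT at 1 kb, 4.61 and 64.4% at 2 kb, 6.95 and 59.6% at 21 to 50 kb, and 7.57 and 61.6% beyond 100 kb. A valley within 5 kb on both sides was found for 89 members (7.14%), against 0.212% of methylated tiles, and one within 20 kb on both sides for 288 (23.1%), against 2.95%. Of the clusters 198 touched a valley, 3 of them on both sides.

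**Figure D4:**
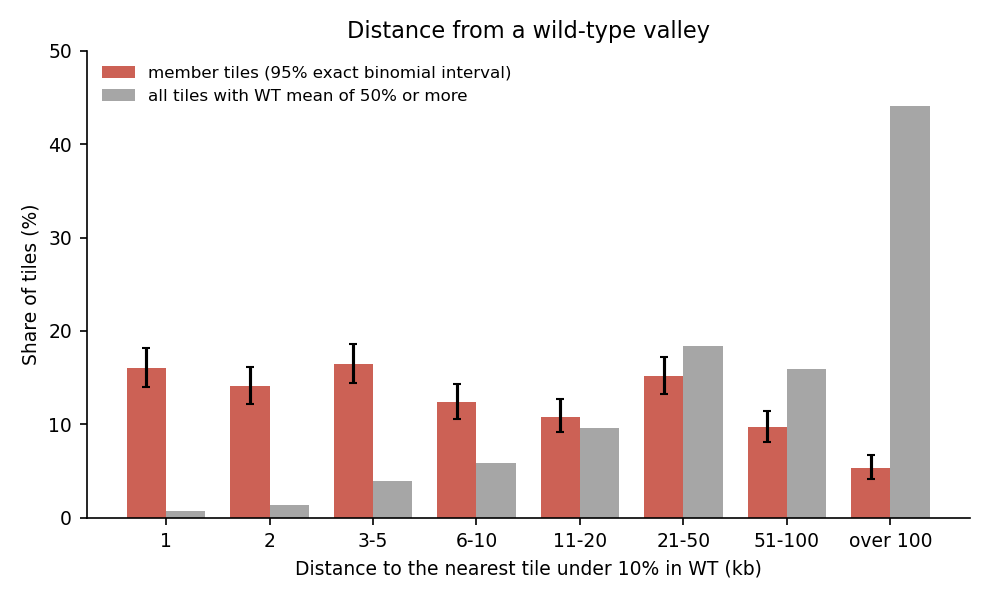
Share in percent of member tiles (red, with 95% exact binomial intervals) and of all tiles with a WT mean of 50% or more (grey) in classes of distance in kb to the nearest tile under 10% in WT. Red bars are higher than grey ones up to 11 to 20 kb (10.8 and 9.57%) and lower from 21 kb on, with 5.37 and 44.1% beyond 100 kb.

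Joining all touching tiles under 10% in KO gave 21698 KO valleys, of which 941 held a member. In 313 of these, with 487 members, the valley also held a tile under 10% in WT, and 46 of them joined 2 or more valleys that were separate in WT. The other 628 (66.7%), with 760 members, held no tile under 10% in WT. Of these, 318 were a single tile and 106 were of 3 tiles or more. Among tiles under 10% in KO as a whole, 26564 were under 10% in WT too, 12600 were at 10 to 50% in WT, and the members made up 3.09%.

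The longest KO valley without a WT valley tile was in Nfix, with 18 tiles of which 9 were members (chromosome 8, 84771001 to 84789000), at 2.34, 2.33 and 2.29% in KO and at 51.6, 48.9 and 50.8% in WT. Next were an 8-tile valley in Zmynd8 (4.54% ± 1.44 in KO, 49.9% ± 2.37 in WT) and 7-tile valleys in Jak3, reaching Insl3 (5.71% ± 0.551 and 59.8% ± 1.53), and in Zfp423, a zinc finger factor of adipocyte precursors (5.33% ± 0.689 and 60.4% ± 3.28). The valley in Zfp423 lay 121 kb from the nearest tile under 10% in WT. Among KO valleys that held WT valley tiles, a run of 28 tiles at Gata3, a GATA transcription factor, had 14 tiles under 10% in WT, in 3 runs, and 3 members (2.18% ± 0.355 and 20.4% ± 1.04). A run of 22 tiles at Tbx3 had 6 such tiles in 1 run and 6 members (1.52% ± 0.215 and 34.1% ± 1.79).

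The 5 clusters of at least 2 tiles farthest from a valley were 124 to 400 kb away. The farthest overlapped Mab21l1, which lies inside the span of Nbea (chromosome 3, 55781001 to 55783000), and was at 2.71, 2.88 and 7.33% in KO and at 68.9, 67.1 and 56.4% in WT. One in the non-coding gene Gm46968 was 354 kb away (6.95% ± 4.30 and 58.5% ± 3.03), one in Arl15, an ARF-like GTPase, 198 kb (8.15% ± 1.21 and 66.7% ± 1.25), and one in Sgce, an imprinted sarcoglycan gene, 138 kb (7.32% ± 2.44 and 56.8% ± 2.07). The fifth was the 3 kb cluster in Zfp423 (5.65% ± 0.925 and 70.5% ± 0.860).

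Methylation was also lower in KO around the members. The flanks come from the contrast that chose the members and share noise with them, so they are described. The 1936 tiles that touched a member without being one had a mean of 21.4, 21.1 and 21.6% in KO and 53.1, 51.1 and 51.1% in WT, and 1655 of them (85.5%) were called lower (limma, adjusted p under 0.05 and 10 points), against 16.2% of all tiles. At 2 kb the means were 37.1% ± 0.141 and 55.5% ± 0.637, at 5 kb 49.3% ± 0.385 and 65.2% ± 0.578, and at 10 kb 54.5% ± 0.299 and 68.4% ± 0.488 (SD, n = 3). The difference was still -12.1 points at 20 kb, where 44.8% of tiles were called lower, beside a mean of -5.36 points over all tiles. The WT level dipped at 1 and 2 kb, where 10.3 and 15.3% of tiles were under 10% in WT.

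The flanks are also given for members near to and far from a valley, a split that itself places low WT tiles in the flanks of near members. For members within 5 kb of a WT valley tile, non-member tiles at 1 kb were at 15.5% ± 0.267 in KO and 41.5% ± 1.10 in WT, and those at 3 kb were at 32.9% ± 0.356 and 48.3% ± 0.498. For members more than 20 kb away, tiles at 1 kb were at 26.4% ± 0.222 and 59.6% ± 1.11, and tiles at 3 kb at 55.1% ± 0.418 and 73.0% ± 0.424 (SD, n = 3). Of the tiles at 1 kb, 73.3% were called lower beside near members and 94.5% beside distant ones, and at 10 kb the shares were 54.0 and 57.1%. The difference between these 2 classes was not tested and, given the split, nothing is read from it.

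**Figure D5:**
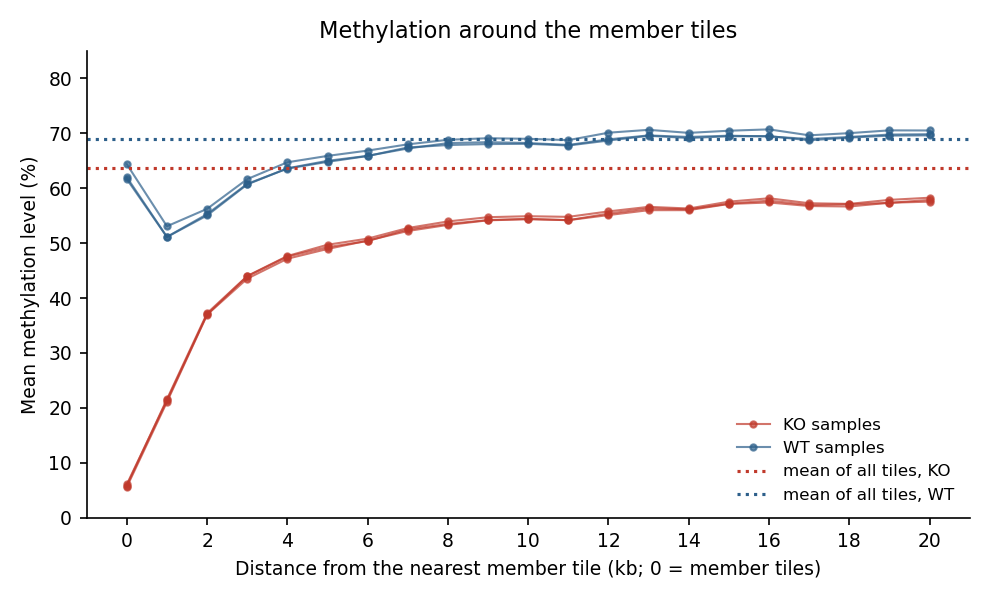
Mean methylation level in percent of tiles by distance in kb from the nearest member tile, with 1 line per sample and dotted lines for the mean of all tiles in each group. KO lines climb from the members to 54.5% at 10 kb and remain below the KO mean of all tiles (63.7%) at 20 kb, while WT lines dip to 51.8% at 1 kb and reach 69.97% at 20 kb. The levels of the members themselves are set by the rule.

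All 19 autosomes held members, in unequal numbers. Chromosome 11 held 11.7% of members and 5.15% of the tiles at 50% or more in WT, chromosome 8 held 9.06 and 5.33%, and chromosome 2 held 10.7 and 7.47%. Fewest members for their tiles were on chromosome 16 (2.005 and 4.05%), chromosome 3 (3.29 and 6.39%) and chromosome 10 (3.13 and 5.45%). Of the 146 members on chromosome 11, 33 were in the HoxB region, and 10 of the 39 clusters with 3 or more tiles were on this chromosome. Chromosome 11 also had the largest share of valley tiles, at 2.11%, and chromosome 8 had 1.37%, close to the 1.38% of the whole table, with 62 of its 113 members more than 10 kb from a valley.

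By position, 771 members (61.8%) overlapped a protein-coding gene, against 44.4% of methylated tiles. Without chromosome 18, for which no gene starts were used, 26 of 1195 members (2.18%) held a gene start, 719 (60.2%) were elsewhere in a coding gene, 142 (11.9%) were in another annotated gene and 308 (25.8%) were outside genes. For tiles at 50% or more in WT the shares were 0.296, 44.3, 8.90 and 46.5%, and for WT valley tiles 34.1, 46.6, 7.44 and 11.9%. The median distance to the nearest listed start of a coding gene was 20.8 kb for members and 79.3 kb for methylated tiles, and 26.9 and 6.84% lay within 5 kb. Starts were listed for 16456 of 20661 coding genes. Exons, introns and untranslated regions were not analysed here.

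Beside the 6 starts shown above, members held the starts of Adam19, a membrane metalloprotease (4.57% ± 0.930 in KO, 77.5% ± 7.45 in WT), of Abca4, a lipid transporter known from the retina (3.56% ± 1.31 and 66.7% ± 4.78), and of Alpk3, an alpha kinase of heart muscle (2.22% ± 0.205 and 58.5% ± 2.65). The oppositely directed starts of Gng3 and Bscl2 shared 1 tile, at 9.68% ± 1.82 in KO and 83.8% ± 0.808 in WT. This start of Bscl2 is 1 of 3 listed for the gene and lies 1.86 kb inside it. The start of Pou5f1, the pluripotency factor Oct4, was at 7.81, 7.48 and 6.63% in KO and at 49.5, 53.3 and 53.9% in WT, and that of Zscan10, another factor of embryonic stem cells, at 12.8, 4.04 and 6.79% in KO and at 64.6, 75.5 and 70.8% in WT. These 7 genes were chosen after their values were seen.

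In all, 554 of 20303 measured coding genes (2.73%) had a member in their span or within 1 kb, 199 had at least 2 and 21 at least 5. Long genes have more tiles, so the number of members per 1000 measured tiles is given too, which was 0.923 over all coding genes. The lists below were chosen with earlier results of these data known, several genes stand in more than 1 list, and neighbouring Hox genes share tiles, so the counts are descriptions.

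Lists of developmental transcription factors differed widely. A tile at 50% or more in WT, which the rule requires, was found at 14 of the 39 Hox genes and 57 of the 95 other homeobox genes. It was found at 13 of the T-box, 23 of the forkhead and 12 of the Sox genes. Of the Hox genes 12 of 39 (30.8%) had a member, at 125.4 members per 1000 tiles. Of the other homeobox genes it was 14 of 95 (14.7%, 10.3 per 1000), with 9 members each in Lhx6 and Zfhx3 and 5 in Meis1. Of the T-box genes it was 4 of 14 (28.6%, 22.5 per 1000): Tbx2, a factor of lung development, had 5 members at 1.44, 1.19 and 2.998% in KO and at 60.5, 67.0 and 68.3% in WT, and Tbx1 had 3 at 4.85% ± 0.579 and 67.8% ± 1.55. Tbx5, the limb and heart factor, had 1 (3.28% ± 1.84 and 50.6% ± 0.938). Forkhead genes had members in 5 of 38 (13.2%, 5.11 per 1000), with 4 in Foxp1 (6.99% ± 1.21 and 57.1% ± 5.46), 3 in Foxp4 (4.91% ± 0.781 and 57.4% ± 2.91) and 2 in Foxn3 (8.24% ± 2.42 and 69.6% ± 2.30). Sox genes had 1 of 18, a single tile in Sox6 (7.68% ± 3.06 and 71.5% ± 6.81) (5.56% of genes, 0.639 per 1000 tiles).

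Of the nuclear receptors 10 of 46 (21.7%, 5.36 per 1000) had a member. Nr4a2, an immediate early orphan receptor, had 5 at 5.86% ± 1.32 in KO and 64.1% ± 5.64 in WT, and Nr2f1, the relative of Nr2f2, had 3 at 6.31% ± 2.50 and 63.2% ± 5.20. Of the GATA, KLF, ETS and basic helix-loop-helix factors of endothelium 4 of 29 (13.8%, 3.99 per 1000) had one. Gata3 had 3 members at 1.53, 1.57 and 1.36% in KO and at 70.01, 70.6 and 68.8% in WT. Gata6 had 2 (5.23% ± 1.88 and 78.96% ± 1.82), and Tal1, a factor of blood and endothelial origin, had 1 (8.65% ± 1.84 and 58.7% ± 11.3).

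Among the lists of signalling genes, the Wnt list was highest per tile. Of the Wnt pathway 10 of 58 (17.2%, 6.37 per 1000) had a member: Tcf7l2 had 5 (5.05% ± 0.187 and 68.5% ± 1.19), its relative Tcf7l1 had 3 (4.97% ± 0.212 and 62.9% ± 1.69), and the receptor gene Fzd7 had 2 (3.92% ± 0.482 and 76.3% ± 5.13). Of the TGF-beta and BMP pathway 8 of 54 (14.8%, 4.76 per 1000) had one. They included the repressors of epithelial genes Zeb2, with 5 members (5.95% ± 1.03 and 66.6% ± 5.19), and Snai1, with 2 (2.26% ± 0.742 and 59.7% ± 6.33), and the ligand Tgfb1, with 2 (7.23% ± 2.78 and 54.6% ± 0.618). Of the VEGF, Notch, angiopoietin and guidance genes 6 of 49 (12.2%, 1.70 per 1000) had one. Nrp2, a co-receptor of VEGF and semaphorins, had 2 (6.77% ± 1.08 and 61.4% ± 0.760) and the guidance ligand Ntn1 had 2 (4.95% ± 2.27 and 72.1% ± 2.22).

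Among vessel markers, 8 of 31 venous, arterial and lymphatic genes (25.8%, 10.3 per 1000) had a member, which include Nr2f2, Nr2f1, Tbx1 and Nrp2 from above. Of the 17 member tiles of this list, Nr2f2 held 5, Nr2f1 3 and Tbx1 3. Its rate thus rests largely on transcription factors already counted in other lists. Of the pan-endothelial markers it was 3 of 35 (8.57%, 1.68 per 1000). The member at Flt1, a VEGF receptor, lay just past the higher-coordinate boundary of its span (chromosome 5, 147727001 to 147728000), whichever end of the gene that is. This member was at 4.11, 5.75 and 9.11% in KO and at 74.2, 73.97 and 71.6% in WT. That in Plvap, a protein of endothelial diaphragms, was at 7.04, 3.10 and 11.6% in KO and at 60.2, 55.7 and 55.9% in WT. The third was Tal1. The lung capillary list had 2 of 21, Tbx2 and Plvap (9.52%, 10.1 per 1000). Of its 6 member tiles 5 were in Tbx2, which also stands in the T-box list, so this rate rests mainly on 1 gene.

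The lists of other cell types and of other gene classes gave the following counts. Leukocyte markers had 0 of 25 and erythroid markers 0 of 9. Epithelial markers had 2 of 28 (7.14%, 3.06 per 1000 tiles), Cldn4 and Grhl2, a factor of epithelial identity (7.65% ± 1.61 and 57.7% ± 0.541), and mesenchymal markers 1 of 21 (4.76%, 2.74 per 1000), Tcf21. Germline genes had 0 of 25 and housekeeping genes 0 of 18. The genes of DNA methylation had 2 of 17 (2.27 per 1000), Dnmt3a itself and Uhrf2 (5.34% ± 0.759 and 52.03% ± 0.592), and imprinted genes 1 of 27 (1.46 per 1000), Sgce. Leukocyte, erythroid, germline and housekeeping genes covered few tiles, 508, 82, 889 and 285.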

How the data were processed

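Each of the 6 samples (3 KO, 3 WT) was made from 30 ng of DNA as 3 libraries, and the sequencer read 100 bases from both ends, as the labels' protocols state. The submitters' processing notes name BWA 0.7.8 and the build mm10. The deposited table gives the methylation level of every tile of 1 kb in every sample as a fraction, per the file headers. Nothing in the labels or headers names the methylation caller, any smoothing, a coverage filter or how tiles were chosen. Since the table has no read counts, depth is unknown and levels carry no counting interval.

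Levels were multiplied to percent. Members, clusters and distances were computed with Python 3.11.15, numpy 2.4.6 and pandas 2.3.3. A logistic model of methylated reads was planned but needs counts, so limma 3.58.1 (R 4.3.3) was run on levels, with a trend of variance on mean level and Benjamini-Hochberg adjustment over all tiles. The code was tested on simulated data. Genes, gene starts and sequences came from RefSeq tables of GRCm38.p6. Genes of a list were matched by exact symbol, and those with no measured tile were left out of its count. The table of gene starts leaves out chromosome 18. Exact permutation tests were not used, since the levels chose the members. The members and lists were chosen with earlier results of these data known. Named were the 20 longest clusters, the 5 farthest from a valley with at least 2 tiles, up to 3 genes of each list with the most members, and 6 gene starts, apart from a few that are not reported here. The loci, KO valleys, HoxB window and microRNAs were named after their values were seen. Same-numbered KO and WT samples did not deviate together (correlation across tiles -0.00321 to 0.0110), so the numbers were not taken as pairs. Other limits, gaps, scalings, models and left-out replicates were tried.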

Additional observations from a re-analysis of the deposited data

How the results depend on the processing

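The number of members depends on the limits, which cut a continuum. With a KO limit of 5% there were 483 members, 387 clusters, 259 genes and 215 KO valleys without a WT valley tile. With a KO limit of 15% the numbers were 2449, 1991, 988 and 1354, and 13.7% of members touched a valley. With a WT limit of 60% they were 659, 546, 339 and 323, with 13.8% touching a valley. Asking every sample to meet the limits left 610, 495, 310 and 281. With valleys under 5% in WT, 8.90% of members touched one and the median distance was 11 kb, and with valleys under 15%, 22.5% did. The median of replicates gave 1287 members, of which 1126 were shared with those reported, and scaling to one mean level gave 1036, all among those reported.

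Leaving out 1 sample gave 1194 to 1312 members, 958 to 1061 clusters, 540 to 582 genes, 593 to 673 KO valleys without a WT valley tile, a median distance of 6 to 7 kb and 15.4 to 16.97% touching a valley. Of the reported members 90.2 to 97.4% were kept. In limma it gave 243872 to 288387 tiles called lower, 1300 to 1633 higher and 1622 to 1653 of the touching flank tiles lower. Scaling to one mean level gave 128517 lower and 30656 higher, and centring 129769 and 18197; 1562 and 1495 flank tiles stayed called. With the replicate block, 316314 tiles were lower, 1612 higher and 1655 flank tiles lower. The held-out difference, a median of 54.3 points on average, was 56.6 points for replicate 1. Depth could not be weighed, since no read counts were used here.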
